A study of Mus musculus with 2 samples.

Results

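Ldha, Ldhb, Slc16a1, Slc2a1, Hk1, Hk2, Pkm, Eno1, Eno2 and Pfkp are 10 genes of glucose uptake, glycolysis and lactate handling. They were taken by symbol from the 27998 genes of the count table, and all 10 were listed. Their transcripts were counted in dissociated pancreatic islets, in 1 library from beta cell specific miR-503 transgenic mice and 1 library from wild type mice. Both libraries came from C57BL/6 mice at postnatal day 70 and were made with the 10x Chromium Single Cell 3′ v2 reagents, which tag each captured molecule with a unique molecular identifier (UMI). The number of mice per library and the promoter that drives the transgene are not given in the sources used here. Since each genotype was 1 library, there was no replicate check: a difference between libraries compares those libraries, and every interval below is a 95% interval that covers counting error only.

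Glycolysis splits glucose into pyruvate, which cells either burn in mitochondria or reduce to lactate with lactate dehydrogenase and export. Beta cells couple pyruvate oxidation to insulin release, and they are known for keeping a small group of otherwise common genes silent, the disallowed genes. Lactate dehydrogenase A (Ldha), the lactate and pyruvate carrier MCT1 (Slc16a1) and the high-affinity hexokinase 1 (Hk1) belong to that group. The other genes are Ldhb, the heart-type lactate dehydrogenase subunit, the glucose transporter GLUT1 (Slc2a1), hexokinase 2 (Hk2), muscle-type pyruvate kinase (Pkm), the alpha and neuronal enolases (Eno1 and Eno2) and platelet-type phosphofructokinase (Pfkp).

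On GRCm38 the disallowed genes lie at chr7:46841475-46855627 (Ldha, ENSMUSG00000063229, plus strand), chr3:104638668-104658462 (Slc16a1, ENSMUSG00000032902, plus strand) and chr10:62268855-62379908 (Hk1, ENSMUSG00000037012, minus strand). Slc2a1 (ENSMUSG00000028645) and Eno1 (ENSMUSG00000063524) are both on chromosome 4, Ldhb (ENSMUSG00000030246), Hk2 (ENSMUSG00000000628) and Eno2 (ENSMUSG00000004267) on chromosome 6, Pkm (ENSMUSG00000032294) on chromosome 9 and Pfkp (ENSMUSG00000021196) on chromosome 13.

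The transgene carries miR-503, so its mature sequence is given first, with the seed (bases 2 to 8) in capitals. RefSeq on GRCm38.p6 places it at chrX:53054027-53054049 on the minus strand.
mmu-miR-503-5p: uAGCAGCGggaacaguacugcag
The full seed match CGCTGCT was searched on the sense strand of annotated 3′ untranslated regions and stood in 0 of the 10 genes, against 3.93% of 21020 protein-coding genes. A 7-letter match of either kind, CGCTGCT or GCTGCTA, stood in Eno1 and Pfkp, 20% of the 10 genes against 11.8% of all. Both motifs hold GCTGCT, which on its own stood in 50% of the 10 genes and 38.5% of all. The matches lie at chr4:150248576-150248602 on the plus strand for Eno1 and at chr13:6580218-6580244 on the minus strand for Pfkp (GRCm38), and are shown with the match in capitals.
Eno1: ggagccaccaGCTGCTAggtcctctat
Pfkp: gctgtgagctGCTGCTAgttggaagct
A match of letters is a description and not a binding site. Eno1 and Pfkp differed by less than 1.5-fold between the genotypes in beta cells, as given below.

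Genes of glycolysis are also known targets of the hypoxia factor HIF1 and of Myc, whose binding motifs share the letters ACGTG. That motif was searched on both strands of 300-base promoter windows, from 250 bases before to 50 after each start; on the minus strand it reads CACGT, and the palindrome CACGTG holds both. It stood in 6447 of 32851 RefSeq windows (19.6%) and in 6 of 15 windows of the 10 genes, which belong to Ldha, Slc16a1, Slc2a1, Hk1, Hk2 and Pkm. Windows of the lactate pair Ldha and Slc16a1 are shown with these letters in capitals, Ldha at chr7:46845554-46845853 and Slc16a1 at chr3:104638414-104638713, both on the plus strand of GRCm38.p6. Ldha has another window, at chr7:46846832-46847131, with 0 matches, which is not shown. These are sequences only, and no factor's binding was measured.
Ldha promoter: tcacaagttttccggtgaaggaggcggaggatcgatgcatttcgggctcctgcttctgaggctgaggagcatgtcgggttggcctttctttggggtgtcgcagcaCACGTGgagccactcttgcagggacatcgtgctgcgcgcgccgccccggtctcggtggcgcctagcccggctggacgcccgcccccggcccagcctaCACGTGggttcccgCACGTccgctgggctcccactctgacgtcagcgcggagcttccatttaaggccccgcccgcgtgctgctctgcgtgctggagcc
Slc16a1 promoter: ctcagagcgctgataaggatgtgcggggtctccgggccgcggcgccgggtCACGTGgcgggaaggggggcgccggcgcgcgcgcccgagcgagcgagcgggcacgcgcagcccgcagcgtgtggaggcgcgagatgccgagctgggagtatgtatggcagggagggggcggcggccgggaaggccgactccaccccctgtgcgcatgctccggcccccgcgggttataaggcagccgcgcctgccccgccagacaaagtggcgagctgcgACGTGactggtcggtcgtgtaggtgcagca

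Cells were sorted into classes by the share of UMIs from hormone genes and by markers. Beta cells had at least 25% of UMIs from Ins1 and Ins2, alpha cells at least 3% from Gcg and delta cells at least 2% from Sst. Endothelial and immune cells had a UMI for at least 4 of 10 markers. These are ranges along a share, not cell types as such: 28 transgenic and 212 wild type cells lay between 20 and 30% insulin. The classes held 2641 transgenic and 3286 wild type beta cells, 547 and 381 alpha cells, 71 and 63 delta cells, 25 and 106 endothelial cells, and 150 and 95 immune cells. A further 557 transgenic and 344 wild type cells met more than 1 rule and were left out. A gamma rule, at least 2% of UMIs from Ppy, was among the rules. The most common pairs were delta with gamma (181 transgenic and 85 wild type cells) and alpha with gamma (141 and 127). The delta class thus held only part of the cells with at least 2% Sst. Every class marker was highest in its own class, except 1 of 10 immune markers in the transgenic library. Ins1, Ins2, Gcg, Sst and the endothelial and immune markers had set the classes, so for them this was fixed in advance. Only the other markers of beta (such as Ucn3), alpha (such as Ttr) and delta cells (such as Hhex) were free to differ.

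The libraries held 109243270 UMIs over 4158 cell barcodes (transgenic) and 104677537 over 4540 (wild type), and 25 barcode sequences were found in both. The non-coding RNA Xist, made by female cells, had 6890 UMIs in the transgenic and 14 in the wild type library, so the genotypes differ in sex makeup as well and the contributions cannot be told apart. Mature miR-503 is not captured by a 3′ poly(A) assay, so the product of the transgene was not measured here. Beta cells gave a median of 60.4% insulin UMIs in the transgenic and 50.4% in the wild type library. Levels below are therefore given as CPM, UMIs scaled to a total of 1000000 outside 7 hormone genes (Ins1, Ins2, Iapp, Gcg, Sst, Ppy and Pyy). The median beta cell had 10250 such UMIs in the transgenic and 10394.5 in the wild type library. The assay counts each captured molecule once at its 3′ end, so levels of different genes can be compared without a length correction. The endothelial class also held markers of stellate and perivascular cells, at 2853 CPM in the transgenic and 1854 CPM in the wild type library.

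Ldha was far higher in endothelial and immune cells than in the endocrine classes. It stood at 357 CPM in transgenic and 309 in wild type endothelial cells, and at 329 and 222 in immune cells. In beta cells it stood at 8.51 (7.49 to 9.64, 250 UMIs) in the transgenic and 2.68 (2.18 to 3.27, 98 UMIs) in the wild type library. Endothelial cells thus had 41.9 times the beta cell level in transgenic and 115 times in wild type islets, and immune cells 38.6 and 82.8 times; the beta cell counts lie within the background estimates given below. Alpha cells were as low in Ldha as beta cells, with 6.57 and 1.70, and delta cells gave 12.3 and 6.82 from only 7 and 4 UMIs. Among immune cells, B cells had more Ldha (462 and 339) than myeloid cells (165 and 168).

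Slc16a1, which carries lactate and pyruvate across the plasma membrane, was likewise highest in endothelial and immune cells. It reached 47.5 and 25.3 CPM in transgenic and wild type endothelial cells and 12.2 and 6.71 in immune cells. Alpha cells had 1.01 from 6 UMIs (transgenic) and 0.425 from 2 UMIs (wild type), delta cells had 0 UMIs in both libraries, and beta cells had 0.647 from 19 UMIs and 0.274 from 10 UMIs. Ldhb was highest in beta cells on this scale. It stood at 12.3 and 8.92 in transgenic and wild type alpha cells and at 10.4 and 7.67 in immune cells, against 28.5 and 17.5 in beta cells. Ldhb in alpha cells differed from beta cells by −1.21 (log2) in the transgenic library and by −0.97, short of 2-fold, in the wild type library. Scaling to all UMIs moved these differences to −0.20 and −0.24, and the transgenic one was also just short of 2-fold with TMM scaling. That scaling to all UMIs also put wild type endothelial cells above beta cells in Ldhb (0.46) and immune cells level with them (−0.00 and −0.08 in the transgenic and wild type library).

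**Figure D1:**
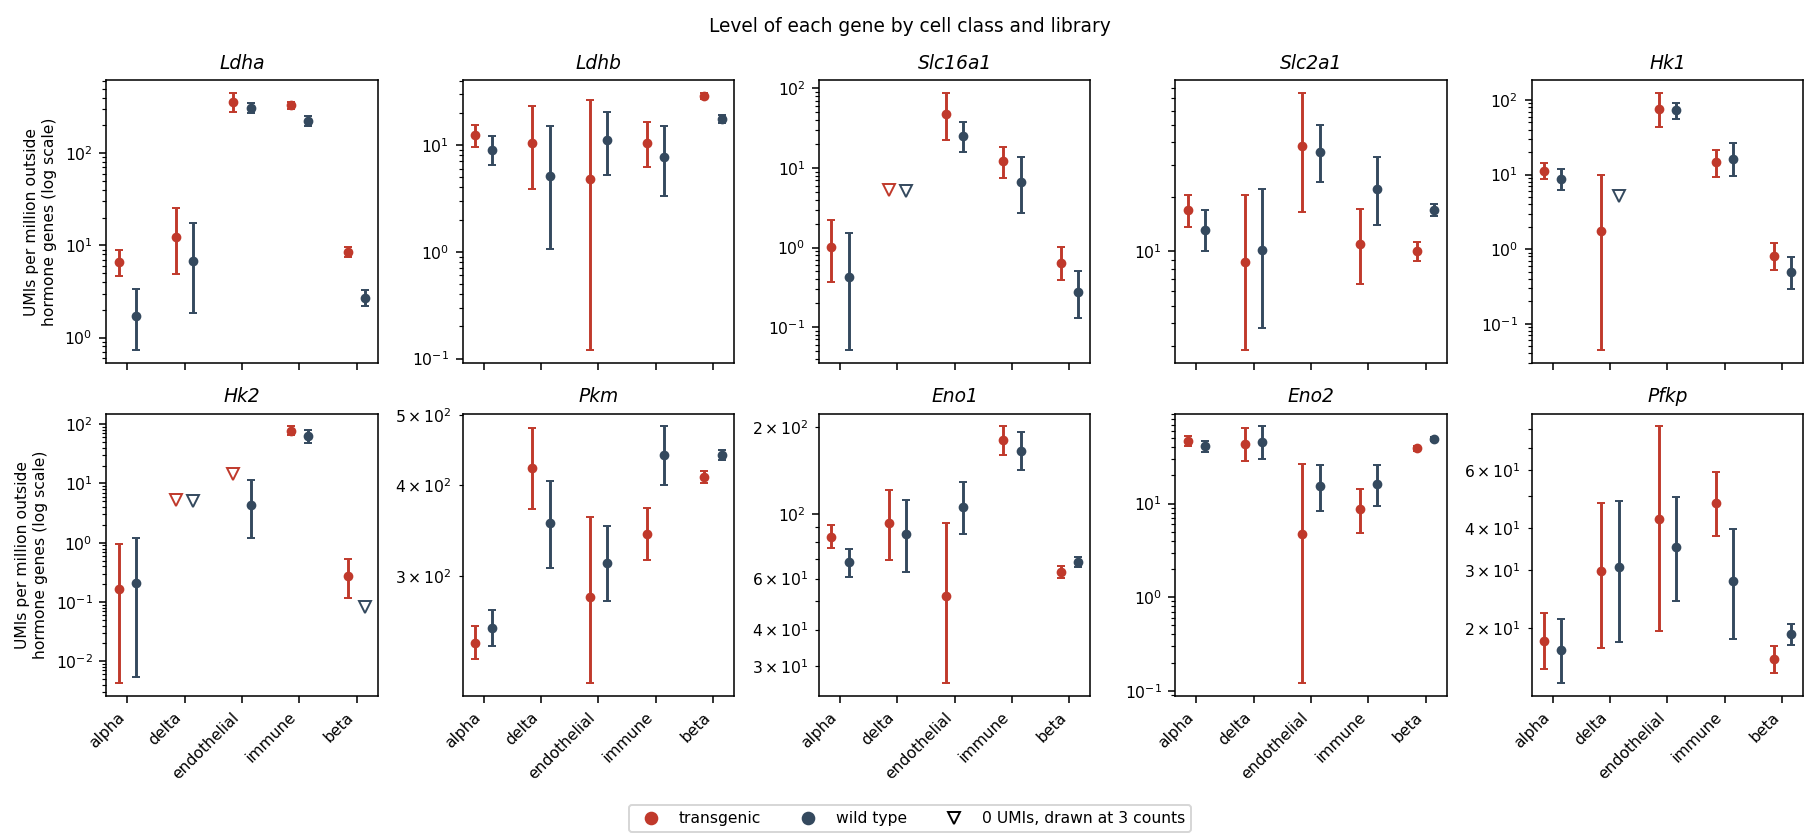
Level of each of the 10 genes (CPM, log axis) by cell class, transgenic left of wild type, with exact Poisson intervals; open triangles stand for 0 UMIs and are drawn at 3 counts. Ldha, Slc16a1, Hk1 and Hk2 lie low in beta cells and highest in endothelial or immune cells, while Pkm lies above 200 in every class.

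The hexokinases, which trap glucose as glucose 6-phosphate, had a different pattern in each class. Hk1 stood at 11.3 (67 UMIs) in transgenic and 8.70 (41 UMIs) in wild type alpha cells, against 0.817 (24 UMIs) and 0.493 (18 UMIs) in beta cells. The alpha cell level was 13.8 times the beta cell level in the transgenic library (log2 3.79, 3.10 to 4.53) and 17.7 times in the wild type library (4.14, 3.31 to 5.03). The beta cell counts of Hk1 lie within the background estimates given below, and with background subtracted the log2 differences were 5.67 and 8.16. Of the 10 genes, Hk1 alone passed 2-fold higher in alpha than in beta cells in both libraries. In cells without endothelial and immune markers Hk1 was not called in either library, since it had under 50 UMIs, though its difference there was 4.28 (transgenic) and 4.70 (wild type). Endothelial cells had the most Hk1, with 76.1 and 72.7. Hk2 was a gene of the immune class, at 77.8 in transgenic and 62.3 in wild type immune cells. Within that class it stood at 104 and 80.8 in myeloid cells and at 83.5 and 7.97 in B cells, the wild type value resting on 2 UMIs. Beta cells gave 8 Hk2 UMIs in the transgenic library, where immune cells were 285 times higher (134 UMIs). They gave 0 in the wild type library, where immune cells (65 UMIs) were at least 758-fold higher, against a limit of 3 counts over the summed beta cells. The beta cell counts of Hk2 lie within or below the background estimates given below.

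Slc2a1, the glucose transporter of most cells outside liver and beta cells, was spread more evenly. It stood at 38.0 and 35.2 in transgenic and wild type endothelial cells, 16.9 and 13.2 in alpha cells, 11.0 and 22.0 in immune cells, 8.78 and 10.2 in delta cells, and 10.0 and 17.0 in beta cells. The alpha cell level differed from that of beta cells by 0.75 (log2) in the transgenic and −0.37 in the wild type library, under 2-fold in both. These became 1.77, past 2-fold, and 0.37 with scaling to all UMIs. The intervals of delta cells spanned those of beta cells.

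The lower steps of glycolysis were present in every class. Pkm, which makes pyruvate, was the most abundant of the 10 genes in every endocrine class, with 243 and 255 in transgenic and wild type alpha cells and 423 and 354 in delta cells, against 410 and 440 in beta cells. Eno1 stood at 83.8 and 68.1 in alpha cells and 180 and 166 in immune cells, against 63.2 and 68.2 in beta cells. Eno2, known as the enolase of neurons and neuroendocrine cells, was endocrine here. It had 4.75 and 15.4 in transgenic and wild type endothelial cells and 8.70 and 16.3 in immune cells, against 39.1 and 49.3 in beta cells. Alpha cells (46.9 and 41.0) and delta cells (43.9 and 46.0) lay near beta cells. Pfkp, a subunit of the phosphofructokinase that commits sugar to glycolysis, stood at 18.4 and 17.2 in alpha cells and 47.6 and 27.8 in immune cells, against 16.1 and 19.2 in beta cells.

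Counts of these genes were read against all genes with at least 50 UMIs over the 2 sums compared, a difference being called at 2-fold. In alpha over beta cells, 8 of the 10 passed that minimum in each library. In the transgenic library 1 was higher (Hk1; 6.4% of all genes were) and 1 lower (Ldhb; 20.4%); in the wild type library 1 was higher (Hk1; 5.17%) and 0 lower (17.6%). Hk1 reached 50 UMIs only through alpha cells, where it is high (67 and 41 UMIs, beside 24 and 18 in beta cells). The median differences of the 8 genes were 0.23 and −0.32 (log2), beside −0.35 and −0.36 over all genes. With scaling to all UMIs the median of all genes moved to 0.67 in the transgenic and 0.37 in the wild type library. Under it 5 genes were called higher and 0 lower in the transgenic library, and the direction turned for Ldha (0.64) and Pkm (0.26) there and for Ldha, Slc2a1, Eno1, Eno2 and Pfkp in the wild type library.

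Endothelial and immune cells were set against beta cells in the same way. In endothelial over beta cells, 7 transgenic and 8 wild type genes had 50 UMIs. Ldha, Slc2a1 and Pfkp were higher in the transgenic library (16.1% of all genes were) and Ldhb and Eno2 lower (22.7%). Those lower calls rest on 1 endothelial UMI each, and both genes reached 50 UMIs only through beta cells. The higher calls of Slc2a1 and Pfkp rest on 8 and 9 endothelial UMIs, with intervals of 0.70 to 2.92 and 0.27 to 2.35. These 2 genes also reached 50 UMIs only through beta cells. Ldha, Slc2a1 and Hk1 were higher in the wild type library (14.9%) and Eno2 lower (32.6%; 14 endothelial UMIs). Hk1 there reached 50 UMIs only through endothelial cells (66 UMIs, beside 18 in beta cells). In immune over beta cells, 8 genes passed in each library. Ldha, Hk2 and Eno1 were higher in both libraries and Pfkp in the transgenic one (12.2% and 9.97% of all genes), and Ldhb and Eno2 were lower in both (47.7% and 47.4%). Hk2 reached 50 UMIs only through immune cells (134 and 65 UMIs, beside 8 and 0 in beta cells). Ldhb (18 and 8 immune UMIs) and Eno2 (15 and 17) did so only through beta cells. With scaling to all UMIs the lower call of Eno2 in wild type endothelial cells ended (−0.55). So did those of Ldhb (−0.00 and −0.08) and Eno2 (−0.72 and −0.49) in transgenic and wild type immune cells. Other genes were newly called higher under that scaling. In endothelial cells these were Eno1 in the transgenic (1.17, from −0.27) and wild type library (1.75), and Pfkp in the wild type library. In transgenic and wild type immune cells they were Slc2a1 (1.59 and 1.48) and Pkm (1.19 and 1.10). Pfkp joined them in wild type immune cells (1.64).

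In delta over beta cells, 7 genes passed in each library, and few delta UMIs stood behind the calls. Ldhb was lower in both libraries (12.7% and 11.2% of all genes were), from 6 and 3 delta UMIs, and with scaling to all UMIs both calls ended (−0.31 and −0.93). Ldha was above 2-fold in the wild type library (9.46% of all genes were), from 4 delta UMIs, with an interval of −0.56 to 2.75 that spans 0. It reached 50 UMIs only through beta cells and stood at 0.43 in cells with at most 5% mitochondrial UMIs. With cells of several classes kept it stood at 0.67. In the transgenic library the Ldha difference of 0.53 became 0.04 without the rule on Ppy and −0.06 with cells of several classes kept. None of the 10 genes was higher in the transgenic library, where 10.1% of all genes were. Scaled to all UMIs, 5 of them were higher in the transgenic and 3 in the wild type library.

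Droplets also take up RNA freed from broken cells, so a low count in beta cells need not be made there. The background of each gene was estimated from genes that beta cells lack (Gcg, Sst, Ppy, Plvap, Cd74 and C1qa), each scaled to the library's profile over all barcodes, and from the summed endothelial and immune markers. Contamination came to 14.6% of the non-hormone UMIs of transgenic and 14.0% of those of wild type beta cells from all 6 marker genes, and to 65.4% and 55.2% from C1qa alone. The observed levels of Ldha, Slc16a1, Hk1 and Hk2 lay within or below the range of these estimates in both libraries. For Ldha the estimates ran from 0.991 to 15.4 CPM in the transgenic and from 1.35 to 7.56 in the wild type library. For Hk1 they ran from 0.205 to 2.68 and from 0.115 to 1.83. Counts of these 4 genes in beta cells are therefore not distinguishable from background at this depth. The other 6 genes lay above their highest estimate in both libraries; the nearest was Slc2a1 in the transgenic library, at 10.0 against 7.97.

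**Figure D2:**
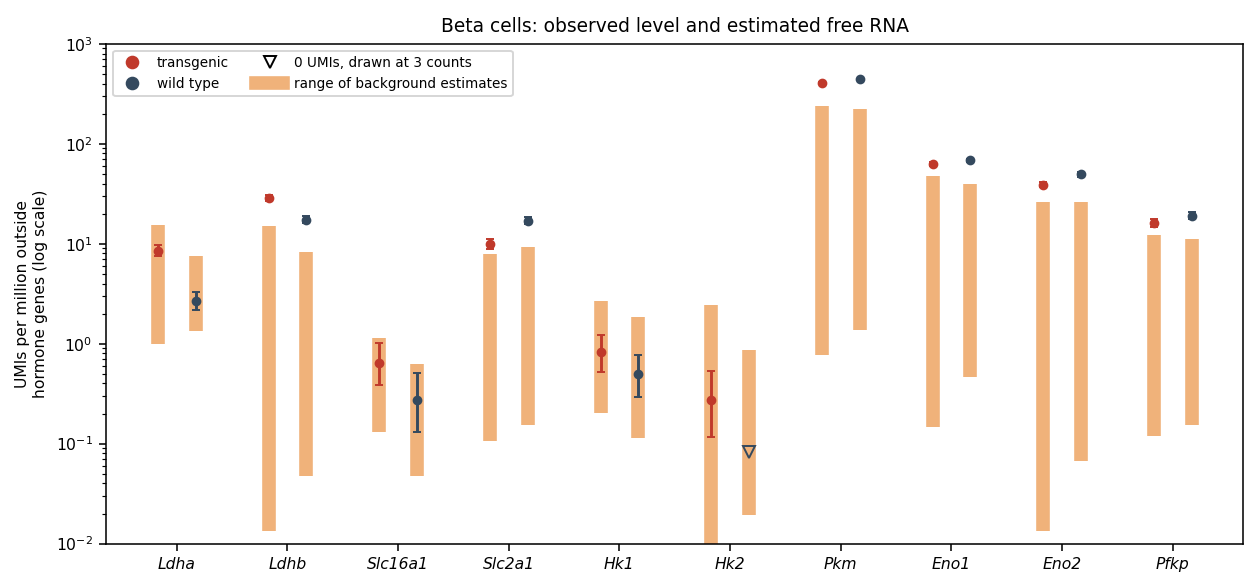
Observed level in beta cells (points, exact Poisson intervals) and the range of background estimates (bars) for each gene, transgenic left of wild type, in CPM on a log axis that starts at 0.01. The points of Ldha, Slc16a1 and Hk1 fall inside their bars and those of the other genes, apart from Hk2, above them.

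In alpha cells the background could be read from insulin, at 3.77% (transgenic) and 6.30% (wild type) of non-hormone UMIs. The Hk1 level of alpha cells then stood far above its estimate, at 11.3 against 0.154 in the transgenic and 8.70 against 0.209 in the wild type library. Ldha in alpha cells stood at 6.57 against 0.886 and at 1.70 against 0.863. Immune RNA was not covered by that estimate: the 10 immune markers summed to 58.6 and 32.7 CPM in transgenic and wild type alpha cells, with none at 0.

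Single cells gave the same order as the sums. After thinning each cell to 2000 non-hormone UMIs, Ldha was seen in 48.0% of transgenic and 44.3% of wild type endothelial cells and in 36.7 and 35.8% of immune cells. It was seen in 1.63% of transgenic and 0.458% of wild type beta cells, of which 6 and 11 were too shallow to be thinned. Without thinning the shares were 92.0 and 88.7% of endothelial, 82.7 and 75.8% of immune and 8.94 and 2.95% of beta cells. Of transgenic beta cells 223 had 1 Ldha UMI, 12 had 2 and 1 had 3; of wild type beta cells 96 had 1 and 1 had 2. The most Ldha in a single immune cell was 37 and 20 UMIs. No subset of beta cells with high Ldha was therefore seen in either library. Pkm was seen in 37.7 and 38.6% of thinned alpha cells (90.5 and 90.8% without thinning), against 54.2 and 57.6% of thinned beta cells (96.1 and 96.9%).

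Within a family, the share of each isozyme describes a cell without reference to scaling. Ldha made 98.7% of lactate dehydrogenase UMIs in transgenic and 96.6% in wild type endothelial cells, and 96.9 and 96.7% in immune cells. In beta cells it made 23.0% (20.5 to 25.6) and 13.3% (10.9 to 16.0), and 16.8 and 4.78% after subtracting the background. The lactate dehydrogenase of endothelial and immune cells was thus nearly all Ldha, and that of beta cells mostly Ldhb.

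Transporters and phosphofructokinases were less exclusive. Slc2a1 made 57.5% of the Slc2a1, Slc2a2 and Slc2a3 UMIs in transgenic and 42.8% in wild type alpha cells, against 6.20 and 7.98% in beta cells. The low-affinity transporter Slc2a2 (GLUT2) made 28.2 and 50.3% in alpha cells, against 93.6 and 91.9% in beta cells. After subtracting the background, Slc2a2 made 17.5 and 30.1% and Slc2a1 65.8 and 59.8% in alpha cells, so Slc2a1 then led in both libraries. Pfkp made 79.6 and 65.9% of phosphofructokinase UMIs in immune cells, against 22.7 and 25.7% in beta cells, where the liver form Pfkl (35.4 and 40.9%) and the muscle form Pfkm (41.9 and 33.4%) made the rest. Eno2 made 4.18 and 8.76% of enolase UMIs in immune cells, against 33.5 and 36.8% in beta cells. Pkm made 99.0% and 98.9% of pyruvate kinase UMIs in beta cells, where the liver and erythrocyte form Pklr stood at 4.26 and 4.93 CPM.

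**Figure D3:**
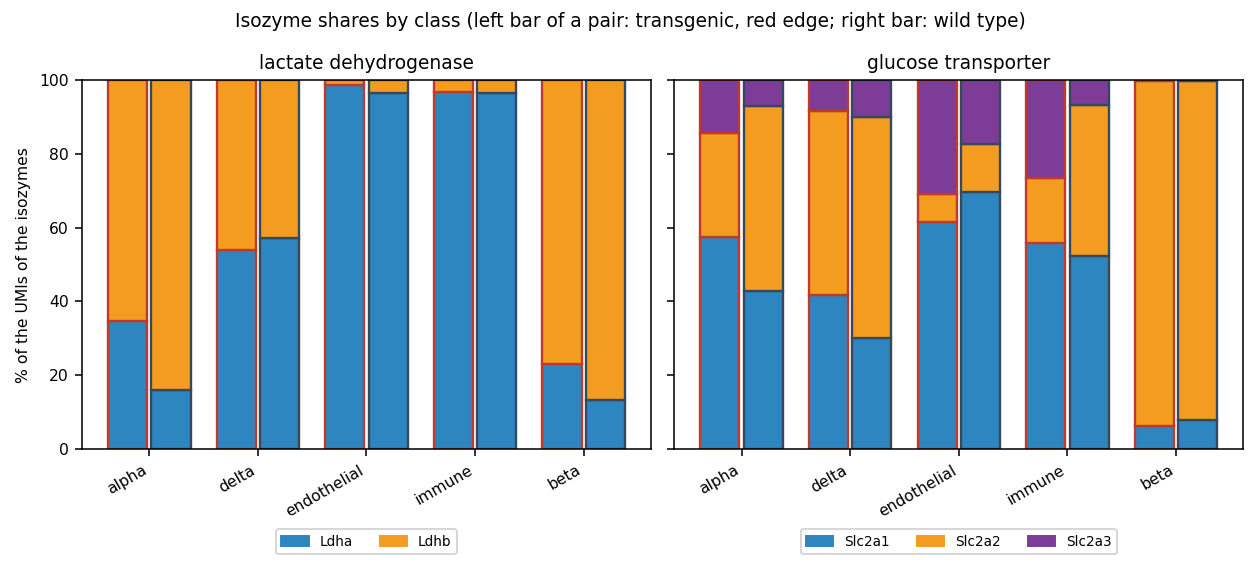
Share of each isozyme (% of the family's UMIs) for lactate dehydrogenases and glucose transporters in each class, transgenic left of wild type in each pair of bars. Ldhb and Slc2a2 fill most of the beta cell bars, and Ldha fills over 96% of the endothelial and immune bars.

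The genotype comparison asks whether glycolytic and disallowed genes differ in the beta cells that carry the transgene. Of the 10 genes 7 had at least 50 UMIs over both libraries, and a difference was called at 1.5-fold. Ldha and Ldhb were higher in transgenic beta cells (5.75% of 12885 genes were) and Slc2a1 was lower (4.14%). Their median difference was −0.11 (log2), beside −0.01 over all genes. With scaling to all UMIs, 374 genes were higher and 2051 lower in place of 741 and 534, the median of all genes moved to −0.32, and of the 10 genes 1 was higher and 2 lower. That scaling shifts every difference between the beta cell sums by the same amount.

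Ldha was 3.17 times higher in transgenic than in wild type beta cells (8.51 against 2.68, log2 1.67, 1.32 to 2.02). The immune markers moved with it: they summed to 99.0 CPM in transgenic and 55.0 in wild type beta cells with 0 of 10 at 0, while endothelial markers summed to 29.7 and 48.3. At the ratio of Ldha to markers in immune cells, the immune markers alone would carry 136 of the 250 transgenic and 57.2 of the 98 wild type Ldha UMIs, and the endothelial markers 29.1 and 49.1. In beta cells with no UMI of these 20 markers Ldha stood at 8.04 (52 UMIs in 669 transgenic cells) against 2.57 (28 UMIs in 1091 wild type cells), a difference as large as over all beta cells. Both beta cell levels of Ldha lay within the background estimates given above, and the part of free RNA in the difference was not tested further.

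Ldhb stood at 28.5 against 17.5 CPM in beta cells, 1.63 times higher in the transgenic library (log2 0.71, 0.56 to 0.86). Both levels lay above the background estimates, which reached 15.0 and 8.35. The call did not hold in beta cells without endothelial and immune markers, where Ldhb stood at 25.7 against 18.1 (log2 0.50), nor with scaling to all UMIs (0.39). Slc2a1 was 1.69 times lower in transgenic beta cells (10.0 against 17.0, log2 −0.76, −0.97 to −0.56). In beta cells without those markers it stood at 8.50 against 20.7.

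The other genes of beta cells were closer between the libraries or too few to call. Eno2 differed by −0.34 (−0.44 to −0.23), Pfkp by −0.25 (−0.42 to −0.08), Eno1 by −0.11 (−0.20 to −0.02) and Pkm by −0.10 (−0.14 to −0.07). These 4 intervals lie below 0, but each difference is under 1.5-fold; with scaling to all UMIs Eno2 passed it, at −0.65. Slc16a1 (19 and 10 UMIs), Hk1 (24 and 18) and Hk2 (8 and 0) had under 50 UMIs and stood at background. The disallowed genes Slc16a1 and Hk1 thus gave no level above background in beta cells of either genotype. Eno1b, a near-identical copy of Eno1, took 4 and 13 UMIs, and how reads that match both were counted is not given in the sources used here.

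**Figure D4:**
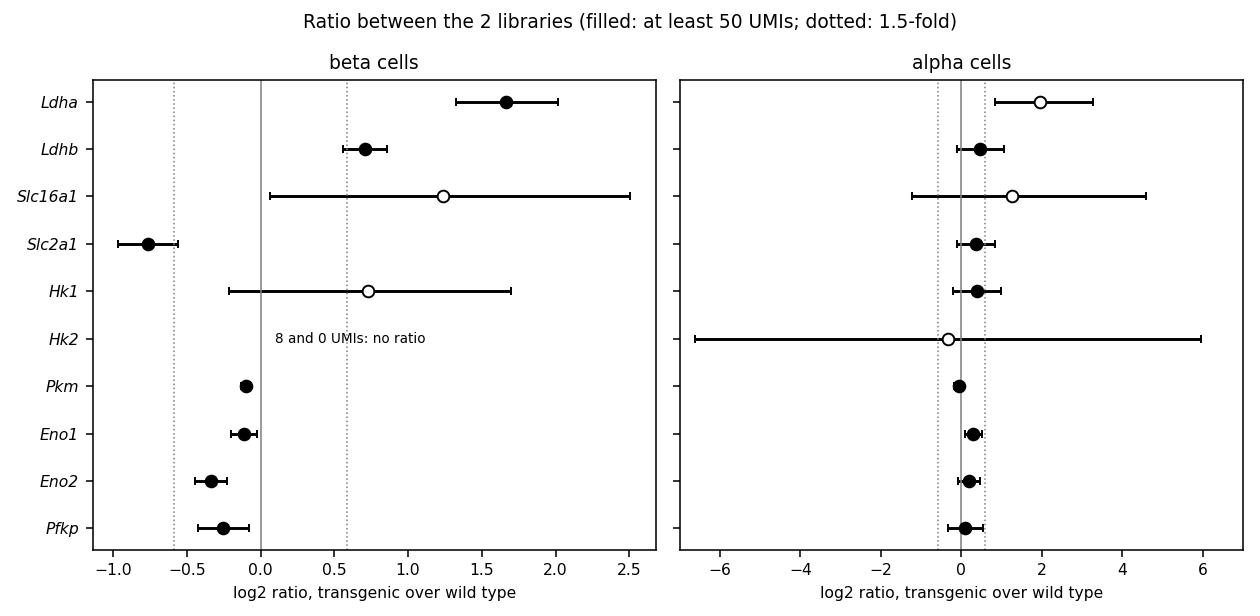
Difference of each gene between the libraries (log2, transgenic over wild type) with exact intervals in beta cells (left) and alpha cells (right), whose axes differ; filled points have at least 50 UMIs and dotted lines mark 1.5-fold. In beta cells Ldha and Ldhb lie to the right of 1.5-fold and Slc2a1 to the left; in alpha cells no filled point passes it.

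Ldha and Slc2a1 differed in the same directions in beta cells of low and of high insulin content. Beta cells were split at 40, 50, 60 and 70% insulin UMIs, since the libraries differ in that share, and the first 4 strata held 61 to 1243 transgenic and 370 to 1326 wild type cells. Ldha stood at 10.6, 6.14, 7.55 and 9.14 CPM in the first 4 strata of transgenic cells and at 2.91, 2.80, 2.69 and 2.02 in those of wild type cells. Slc2a1 stood at 11.8, 10.7, 12.9 and 7.85 in transgenic strata and at 23.1, 17.1, 15.5 and 11.6 in wild type strata. Counted Ldha was higher and Slc2a1 lower in transgenic cells in each of these 4 strata. Ldha in beta cells was not distinguishable from background, as given above. The strata of a library share its free RNA, so they are not separate checks. The last stratum held 18 wild type cells. Ldhb was not higher in transgenic cells of the first stratum (14.1 against 14.3) and was higher in the next 3, for instance 29.6 against 19.0 at 50 to 60% insulin. Pkm was lower in transgenic cells in each of the 4 strata, most at 60 to 70% insulin (435 against 579).

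**Figure D5:**
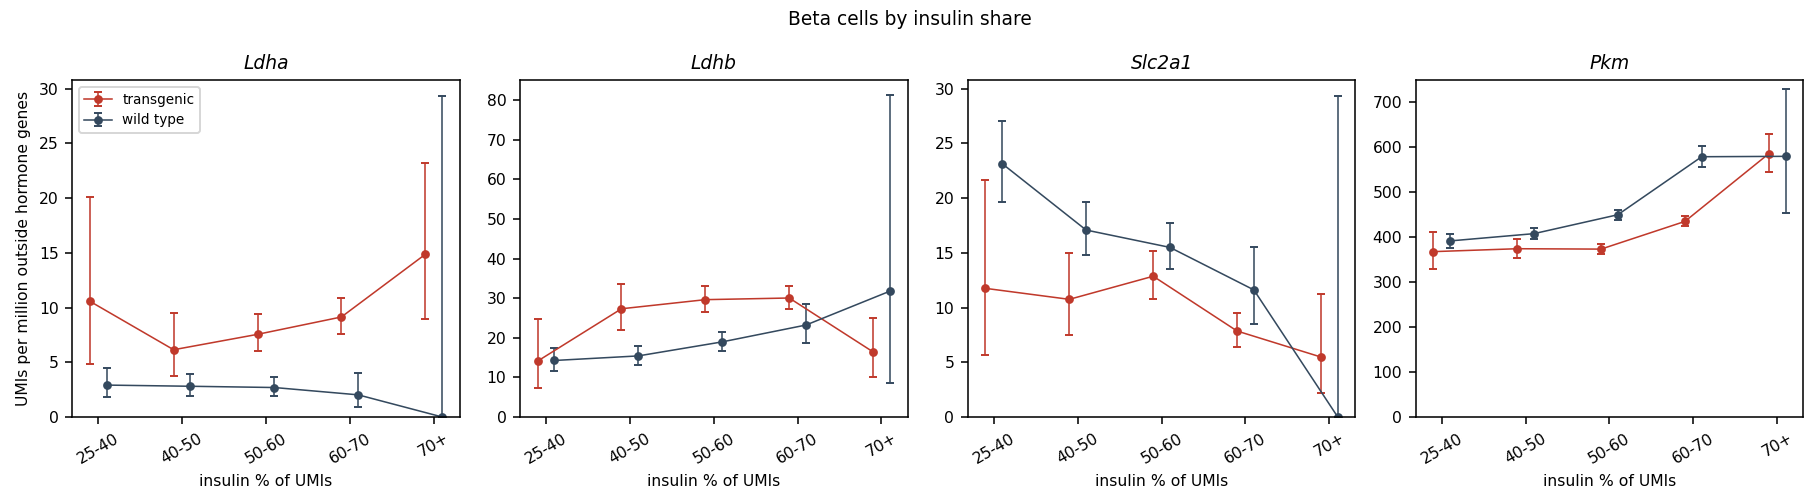
Levels in beta cells (CPM, exact Poisson intervals) by insulin share of the cell's UMIs, for each library. Transgenic points lie above wild type for Ldha and below for Slc2a1 in the 4 strata up to 70%; the highest wild type stratum holds 18 cells.

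The mitochondrial share of UMIs, which differs with cell quality, had a median of 2.03% in transgenic and 3.22% in wild type beta cells. Slc2a1 was lower in transgenic cells with 1.5 to 2.5% (9.79 against 12.4), 2.5 to 4% (12.0 against 17.2) and 4 to 10% mitochondrial UMIs (8.58 against 21.1). It was not lower below 1.5% (8.42 against 5.90), where only 5 Slc2a1 UMIs came from 92 wild type cells. Counted Ldha, not distinguishable from background in beta cells, was higher in transgenic cells in all 4 of these bins, for instance 8.44 against 3.19 between 2.5 and 4%. Ldhb was higher too, for instance 25.9 against 17.2. In beta cells with no UMI of 5 division markers the levels were 8.50 against 2.59 for Ldha, 28.2 against 17.7 for Ldhb and 10.2 against 17.0 for Slc2a1, close to those of all beta cells. The part of insulin content, mitochondrial share and sex in these differences was not tested.

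Cells outside the beta class were compared between genotypes too. In alpha cells 7 of the 10 genes had 50 UMIs, and 0 were called higher (4.17% of 9715 genes were) and 0 lower (3.54%). Ldha leaned the same way as in beta cells, with 6.57 (39 UMIs) against 1.70 (8 UMIs), a log2 difference of 1.95 (0.83 to 3.26) that fell short of 50 UMIs. Immune markers in alpha cells moved with it, at 58.6 against 32.7 CPM, and their part was not tested. Slc2a1 stood at 16.9 against 13.2 in alpha cells (log2 0.36, −0.11 to 0.84), so the lower value of transgenic beta cells was not seen there. Eno1 stood at 83.8 against 68.1 (log2 0.30, 0.09 to 0.50). These differences between classes were not tested.

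In delta cells 3 genes had 50 UMIs and 0 were called (4.65% of all genes were higher and 5.47% lower). In endothelial cells 4 did, and Eno1 was lower in the transgenic library, at 52.3 (11 UMIs) against 106 (96 UMIs). There 10% of all genes were lower and 9.5% higher. The interval of Eno1 was −2.06 to −0.11 (log2), and it reached 50 UMIs only through the wild type library. In immune cells 5 genes had 50 UMIs, and Pfkp was higher, at 47.6 (82 UMIs) against 27.8 (29 UMIs). There 16% of all genes were higher and 14.6% lower. The interval of Pfkp was 0.15 to 1.44, and it reached 50 UMIs only through the transgenic library. Ldha in immune cells differed by 0.57 (0.34 to 0.79), under 1.5-fold. The makeup of that class moved with it: it held 58 B cells and 44 myeloid cells in the transgenic library, and 22 B cells and 69 myeloid cells in the wild type library.

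The rest of the pathway was counted over 4 lists. In transgenic beta cells 5.75% of all genes were higher and 4.14% lower at 1.5-fold, as given above. Of 17 other glycolytic genes, 13 had 50 UMIs in beta cells and 0 passed 1.5-fold in either direction, with a median difference of −0.19 (log2). Those that differed most were Slc2a2 (−0.37), Pfkl (−0.28), Aldoc (−0.27) and Aldoa (−0.26), the last 2 being aldolases, which split the 6-carbon sugar. Pfkm stood at 29.7 against 24.9 (0.25) and Pklr differed by −0.21. Scaled to all UMIs, 3 of the 13 were lower, Slc2a2 (−0.68), Pfkl (−0.59) and Aldoc (−0.59). In alpha cells 12 passed the minimum and only Slc2a2 was called, lower in the transgenic library (8.26 against 15.5), where 3.54% of all genes were lower. Beta cell RNA moved with it: the estimated background of Slc2a2 in alpha cells was 3.90 against 9.40 CPM, and its part in the call was not tested.

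Of 17 other genes named as disallowed in beta cells, 11 had 50 UMIs. In transgenic beta cells 3 were higher (5.75% of all genes were) and 1 lower (4.14%). Their median was 0.27, beside −0.01 over all genes. Arhgdib, a gene abundant in leukocytes, stood at 6.68 against 2.77 (log2 1.27), beside the higher immune markers given above. Igfbp4, a binding protein of insulin-like growth factors, differed by 1.01, Zfp36l1, which promotes mRNA decay, by 0.82, and the neuronal gene repressor Rest by −0.64. Rest had 33 and 64 UMIs and an interval of −1.29 to −0.01. The levels of Igfbp4 (1.16 against 0.575) and Zfp36l1 (3.13 against 1.78) in beta cells stood beside background estimates, from all 6 marker genes, of 0.686 and 0.504 for Igfbp4 and 1.91 and 1.43 for Zfp36l1. The 10 genes were judged against a range of estimates that reaches higher, with C1qa alone. That range is not given for Igfbp4 and Zfp36l1, so they were not shown to lie above background. In endothelial cells Igfbp4 stood at 271 and 59.4, Zfp36l1 at 295 and 317 and Rest at 95.1 and 96.9. Endothelial markers in beta cells were lower in the transgenic library, as given above. The part of free RNA in the differences of these 3 genes was not tested. Catalase (Cat) and ornithine aminotransferase (Oat) differed by −0.38 and 0.37, under 1.5-fold. Scaled to all UMIs, Zfp36l1 (0.50) was no longer called, and 3 genes, Rest, Cat and Yap1, were lower. In endothelial over beta cells all 9 transgenic and 13 wild type genes of this list with 50 UMIs were at least 2-fold higher. Over all genes 16.1% and 14.9% were, and the medians of the list were 5.17 and 5.44. In immune over beta cells all 12 and 10 were (12.2% and 9.97% of all genes), with medians of 4.05 and 4.11. Some genes passed the minimum only through the class where they are high. Igfbp4 had 57 endothelial and 34 beta UMIs (transgenic), and Fcgrt 98 and 17 (wild type). The minimum itself thus favours higher calls, and these counts are descriptions. Alpha cells were less set apart, with 4 of 9 higher than in beta cells in each library, beside 6.4% and 5.17% of all genes. Oat and Lmo4 were among them in both libraries. The rest differed: Igfbp4 (28 alpha UMIs) and Rest (20) in the transgenic library, and Smad3 (14) and Yap1 (29) in the wild type library. Another 2 of 9, Cxcl12 and Cat, were lower in each, beside 20.4% and 17.6% of all genes. Both reached 50 UMIs only through beta cells. Cxcl12 had 6 and 1 alpha UMIs beside 93 and 97 in beta cells, and Cat 3 and 2 beside 53 and 86.

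Of 21 genes of lactate, pyruvate and electron shuttles, 17 had 50 UMIs and 1 was called, with a median of 0.04. That was Pdk2, a kinase that holds back pyruvate dehydrogenase, at 19.1 in transgenic against 12.6 in wild type beta cells (log2 0.60), which with scaling to all UMIs was 0.28 and no longer called. The aspartate and glutamate carrier Slc25a13 differed by −0.49, the glycerol phosphate shuttle enzyme Gpd1 by −0.33 and the mitochondrial pyruvate carrier Mpc2 by 0.20. Slc25a13 (−0.80) and Gpd1 (−0.64) were lower with that scaling. Of 15 regulators and hypoxia genes, 13 had 50 UMIs, with a median of −0.02, and Myc alone was called, at 8.28 against 4.16 (log2 0.99). Myc stood at 49.9 and 20.1 in transgenic and wild type immune cells, and the immune markers in beta cells were higher in the transgenic library too, as given above; their part was not tested. Pfkfb3 and Pfkfb4, which make the activator of phosphofructokinase, differed by −0.54 and −0.46, and Ankrd37, a HIF1 target, by 0.44. Scaled to all UMIs, Pfkfb3 (−0.86), Pfkfb4 (−0.77) and Pfkfb2 (−0.60), named after its value was seen, were lower.

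Genes whose levels ran most like those of the disallowed genes were sought over the 10 sums (5 classes in 2 libraries) among 12747 genes. The sums share libraries and depth, so the correlations are descriptions. For Ldha the closest were Ppp1r16b (Pearson r of 0.988), Svbp (0.988) and Litaf (0.986). For Slc16a1 they were Pltp (0.992), Tgtp2 (0.991) and Plxnd1 (0.990), and for Hk1 they were Mgst1 (0.970), Arid5a (0.960) and Col1a2 (0.957). Mgst1, a glutathione transferase, is itself on the list of disallowed genes.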

How the data were processed

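The authors' deposited filtered matrices hold raw UMI counts per gene and cell barcode, not normalized. Cell Ranger 2.1.0, STAR 2.5.1b and mm10 are named in the submitters' processing notes. Islets were digested with trypsin and EDTA for 5 minutes at 37 °C, per the labels' protocols. Cells needed 500 genes, 1000 UMIs and at most 10% mitochondrial UMIs, which removed 15 transgenic and 20 wild type barcodes. Classes were cut by hormone shares and markers; cells with at least 2% Ppy formed a gamma rule, and cells that met several rules were left out, which also removes many doublets. Scrublet's automatic threshold marked 0.505% and 0.0661% of barcodes and was not used; leaving out its top 4% was an alternative.

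Counts were summed per class and library. Levels carry exact Poisson intervals, log2 ratios exact conditional binomial intervals and shares Clopper-Pearson intervals at 95%. Reads were made into UMIs by the authors, so the intervals cover counting error only. With 1 library per genotype no test was made. A sum of 0 UMIs was given a limit of 3 counts. Alternatives were scaling to all UMIs, TMM (edgeR 4.0.16), means over cells, other filters and cuts, and background subtraction. Tools were Python 3.11.15, scanpy 1.11.5, scipy 1.17.1 and R 4.3.3. The ratio code was checked on simulated data.

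The 10 genes and all lists were chosen with earlier results of these data known. Beside the 10 genes, the text names isozyme partners (1 of them is not reported here), up to 4 genes of each list with at least 100 UMIs over both beta sums and the largest differences, the called genes Igfbp4, Rest, Pdk2 and Myc where that rule missed them, named after their values were seen, and 3 genes most like each of Ldha, Slc16a1 and Hk1 by Pearson r of log2(level + 1). Other genes of the disallowed list, such as Lmo4 and Smad3, were also named after their values were seen. All 10 gene identifiers matched the GRCm38 annotation.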

Additional observations from a re-analysis of the deposited data

Results flagged for a closer look

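Eno1 differed between the libraries with opposite signs in beta and alpha cells, by under 1.5-fold in both. The log2 difference was −0.11 (transgenic over wild type) in beta cells, with an interval below 0, and 0.30 in alpha cells, with an interval above 0. The difference between the classes was not tested, since each genotype is a single library.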

How the results depend on the processing

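In beta cells 0 of 9 genotype differences of the 10 genes changed sign under 12 alternatives (Hk2 gave no ratio). Ldha ranged from 1.35 to 2.72 (log2), Ldhb from 0.39 to 0.77 and Slc2a1 from −1.29 to −0.63; in alpha cells Hk2, Pfkp and Slc16a1 changed sign, each at few UMIs or near 0. The count of called genes in beta cells, 1275, became 2425 with scaling to all UMIs, where higher genes made 15.4% in place of 58.1%, and 3774 without the minimum of 50 UMIs, which also raised the count among the 10 genes from 3 to 6. In alpha cells 749 called genes became 3267 without the minimum. Among the 10 genes in alpha cells the count of 0 became 1 with means over cells, 1 with cells of several classes kept, 1 without the rule on Ppy and 2 without the minimum. In alpha over beta cells of the transgenic library, 2 called genes became 5 with scaling to all UMIs, 1 with TMM (Ldhb fell short) and 1 in cells without endothelial and immune markers (Hk1 had under 50 UMIs). In the wild type library 1 called gene became 2 with at most 5% mitochondrial UMIs, with higher hormone cuts, without the top Scrublet scores, with cells of several classes kept, without the minimum and without the rule on Ppy. It stayed at 1 in cells without endothelial and immune markers, where the gene called was Ldhb, lower, in place of Hk1. The causes of these shifts were not tested, beyond the wider set of genes that an absent minimum lets in. The rule on Ppy, the cells without endothelial and immune markers and the marker-sum background were chosen after seeing the data. No paired analysis was possible because each genotype has 1 library. Depth limits Slc16a1, Hk1 and Hk2 in beta cells and every gene in delta and endothelial cells with few UMIs.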
